A study of Caenorhabditis elegans with 4 samples.

Results

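The transcripts of 10 genes for enzymes that break down sphingolipids were followed in early adult Caenorhabditis elegans that had been starved as hatchlings, in wild-type animals and in fasn-1(g14) animals, whose gene for fatty acid synthase carries a mutant allele. The genes were chosen by name through the sequence names of the table: the acid sphingomyelinase genes asm-1, asm-2 and asm-3, asah-1 and asah-2 for acid ceramidases, the glucocerebrosidase genes gba-1, gba-2, gba-3 and gba-4, and spl-1 for sphingosine phosphate lyase. All 10 were among the 13758 rows of the table, and all 10 passed the filter on low values. The wild-type group was strain N2 (Bristol) and the mutant group was strain GG14 with genotype fasn-1(g14), each with 2 replicate libraries numbered 3 and 4. Both groups had been held without food from the egg for 8 days at 20 °C and were then fed HT115 bacteria with an empty vector, on plates with 25 µg/ml carbenicillin and 1 mM IPTG, for about 68 hours until eggs were seen. Each library came from a pool of whole animals started from 750 live larvae. The mutant was represented by 1 allele in 1 strain.

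Sphingolipids are membrane lipids built on a long-chain amino alcohol, the sphingoid base, joined to a fatty acid to form ceramide. Acid sphingomyelinase removes phosphocholine from sphingomyelin and glucocerebrosidase removes glucose from glucosylceramide, and both release ceramide in the lysosome. Acid ceramidase then splits ceramide into a fatty acid and a free sphingoid base, and sphingosine phosphate lyase, an enzyme of the endoplasmic reticulum, cleaves the phosphorylated base and so removes it from the pathway. In humans, loss of the first of these enzymes causes Niemann-Pick disease of types A and B, loss of glucocerebrosidase causes Gaucher disease, and loss of acid ceramidase causes Farber disease. In C. elegans the sphingoid base has a branched tail, made from branched fatty acids.

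The values were CPM, reads scaled by library size and by a normalization factor for each library. Read totals recovered from these values lay between 13960509 and 15889424, and 3 reads, the floor used here, corresponded to 0.188 to 0.203 CPM. Markers of the tissues of a whole animal were sought: 43 genes named for intestine, epidermis, body wall muscle, pharynx, neurons, coelomocytes, germline and sperm. Of these, 42 were matched to a row, and none of the 42 was at 0 in all 4 libraries. The symbol of the other gene was not in the annotation used. In the whole table only 13 to 63 rows were at 0 in a library, so nearly any gene with a row would meet this. The transcript of the mutated gene, fasn-1, was found at 369 and 410 CPM in wild type against 353 and 285 CPM in the mutant, and the difference had an adjusted p of 0.12 in limma, which did not pass. Levels in whole-animal RNA do not tell fewer cells of a type from less RNA per cell.

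Within the breakdown pathway, transcripts of 6 of the 10 enzymes rose in the mutant, 0 fell and 4 did not pass the test (limma on log2(CPM + 1), Benjamini-Hochberg adjusted p below 0.05 over 12977 genes). Every class had at least 1 member that rose: asm-2 and asm-3, asah-1 and asah-2, gba-4, and spl-1. Among all genes tested, 4.41% rose and 10.7% fell. As the 10 were chosen with earlier results of these data known, these shares are a background and not a test of the list. Without wild type replicates 3 and 4 in turn, the share of all genes that rose was 1.16% and 1.17% and 5 of the 10 enzymes rose, and without mutant replicates 3 and 4 in turn it was 18.1% and 7.68% and 6 rose. The shares that fell were then 3.43% and 1.38% without a wild-type library and 25.2% and 14% without a mutant library, and 0 of the 10 fell in any of these. The median change of the 10 was 0.63 on the log2 scale, against 0.0019 for all genes tested. Both mutant libraries lay above both wild-type libraries for 7 of the 10, against 31.2% of all genes tested, and below them for 0, against 32.9%. The member of the 7 that did not pass the test was gba-2, whose gap was under 1 read. With 2 libraries in a group, the limma fit drew the variance of each gene toward a trend with level over the 12977 genes. The standard errors (SE), intervals and p-values from limma thus rest on the spread between replicates across genes, and not on a gene's own libraries alone. That spread may be technical, since the labels do not say that replicates came from separate cultures.

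**Figure D1:**
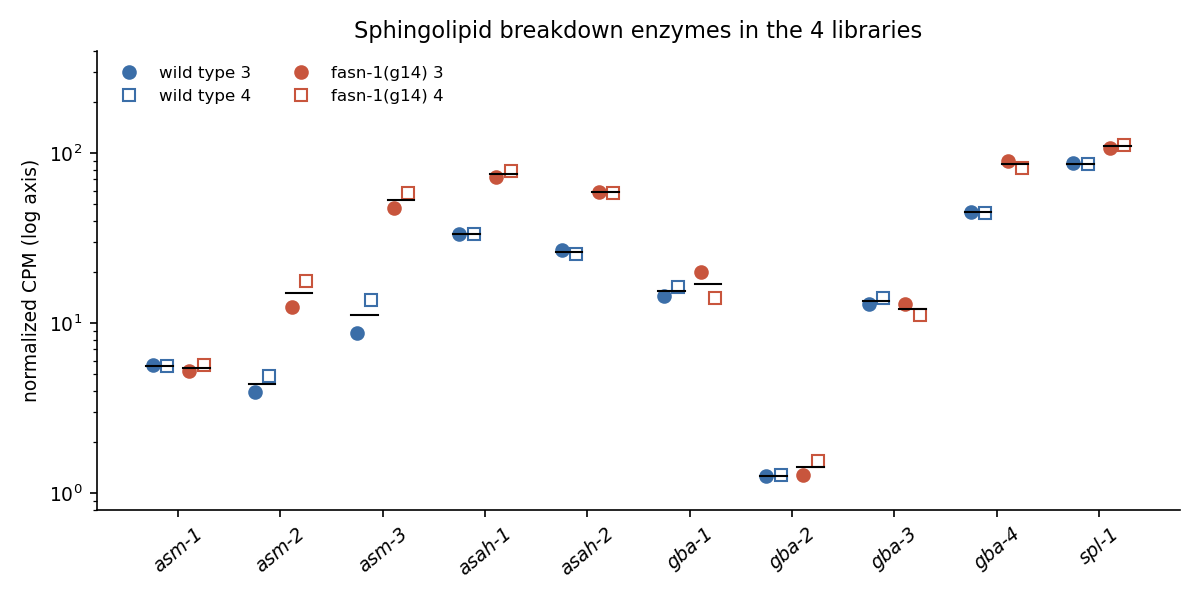
Normalized CPM (log axis) of the 10 breakdown enzymes in each library; circles are replicate 3, squares replicate 4, blue wild type, red fasn-1(g14), and short bars the group means. The red points of asm-2, asm-3, asah-1, asah-2, gba-4 and spl-1 lie above both blue points, while those of asm-1, gba-1 and gba-3 overlap with them.

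The acid sphingomyelinase genes differed most from one another. The gene asm-3 (W03G1.7, WBGene00000213) lies on chromosome IV from 520214 to 523809 on the minus strand of WBcel235, with 2 annotated transcripts, and its loss is known to lengthen life in C. elegans. Its values were 8.73 and 13.6 CPM in wild type, against 47.7 and 57.9 CPM in the mutant, from 139 and 202 reads and from 706 and 894 reads. The lower mutant library was thus above the higher wild-type library by more than the difference within either pair, although the wild-type pair itself was unequal. The rise was 4.72-fold in mean CPM, or 2.17 on the log2(CPM + 1) scale (SE 0.21, 95% interval 1.67 to 2.66; limma, adjusted p = 0.00314). On that log2 scale, which shrinks the changes of low genes, the rise of asm-3 ranked 5 of 12977 genes in size.

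The gene asm-2 (ZK455.4, WBGene00000212; chromosome X, 11321079 to 11324251, minus strand) was at 3.96 and 4.86 CPM in wild type against 12.4 and 17.7 CPM in the mutant. Its groups did not overlap, and the mutant libraries differed from each other by more than the wild-type libraries did. It rose 3.42-fold in mean CPM, and the log2 change was 1.56 (SE 0.24, 95% interval 0.99 to 2.12; limma, adjusted p = 0.0126). In contrast, asm-1 (B0252.2, WBGene00000211; chromosome II, 6910072 to 6912659, plus strand) was at 5.65 and 5.60 CPM in wild type against 5.20 and 5.63 CPM in the mutant. The 4 values overlapped, and the change of -0.05 on the log2 scale (95% interval -0.56 to 0.46; limma, adjusted p = 0.906) did not pass. The upper end of that interval corresponds to a 1.38-fold rise and the lower ends for asm-2 and asm-3 to rises of 1.99-fold and 3.19-fold, all on the CPM + 1 scale. Exons of asm-1 share 120 bases with those of cyn-10 on the other strand, which stood at 19.1 to 22.1 CPM over the 4 libraries, and the library kit does not mark strand.

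The sphingomyelinase genes were also compared with each other per length of exon, library by library. Relative to asm-1, the level of asm-3 per kb was 1.45 and 2.28 times as high in the wild-type libraries and 8.58 and 9.62 times as high in the mutant libraries. The level of asm-2 relative to asm-1 was 0.648 and 0.803 in wild type and 2.21 and 2.91 in the mutant, so that asm-2 lay below asm-1 in both wild-type libraries and above it in both mutant libraries. The ratio of asm-3 to asm-2 was 2.23 and 2.84 in wild type and 3.88 and 3.31 in the mutant. Exact two-sided permutation tests over the 2 and 2 libraries gave p = 0.333 for each of these 3 ratios, the smallest value this design allows, and 0.389 when adjusted over the 7 ratios compared within classes. The summed level of the 3 genes was 9.77 and 12.8 CPM per kb in wild type and 34.3 and 42.6 CPM per kb in the mutant. Of this sum, asm-3 held 46.7% and 55.8% in wild type and 72.8% and 71.1% in the mutant, and asm-1 went from 32.3% and 24.5% to 8.48% and 7.39%.

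**Figure D2:**
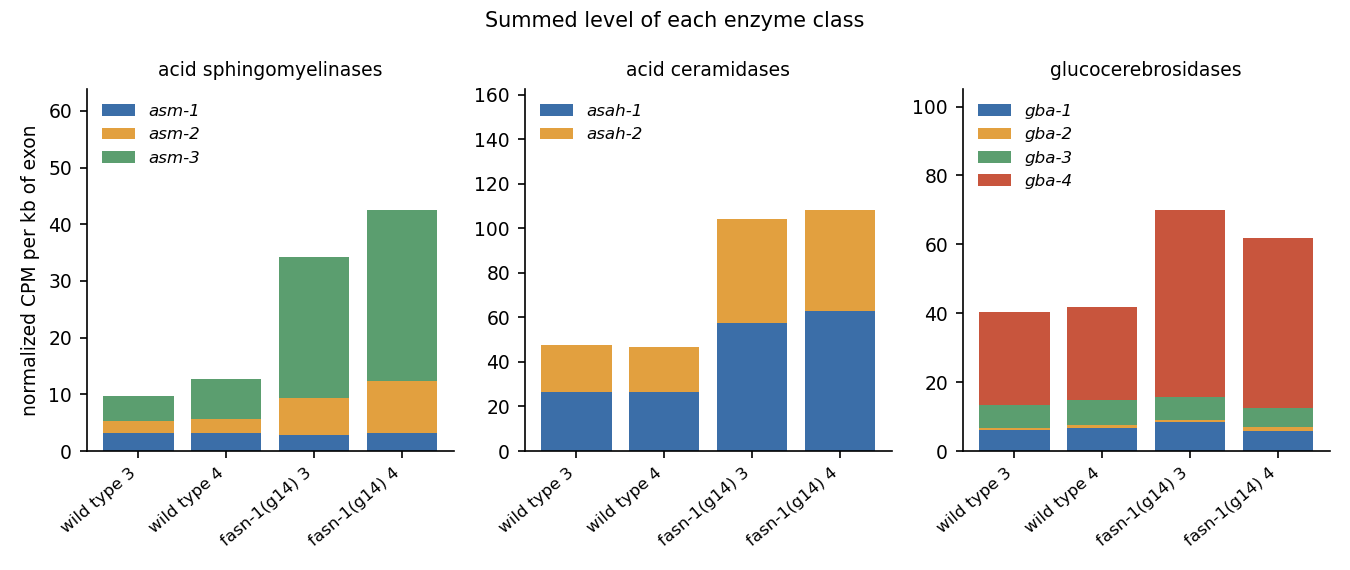
Stacked bars of normalized CPM per kb of exon in each library for the acid sphingomyelinase, acid ceramidase and glucocerebrosidase genes; each panel has its own axis from 0. The asm-3 segment takes most of the added height in the first panel, both ceramidase segments grow alike, and gba-4 takes nearly all of the added height in the third panel.

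Both acid ceramidase genes rose, and by similar amounts. The gene asah-1 (K11D2.2, WBGene00010769; chromosome I, 12505114 to 12507569, plus strand) stood at 33.2 and 33.3 CPM in wild type against 72.1 and 78.6 CPM in the mutant, a 2.26-fold rise (log2 change 1.15, SE 0.099, 95% interval 0.92 to 1.39; limma, adjusted p = 0.00256). For asah-2 (F27E5.1, WBGene00009192; chromosome II, 10139590 to 10141406, plus strand) the values were 27.1 and 25.5 CPM in wild type and 59.3 and 58.1 CPM in the mutant, a 2.23-fold rise (log2 change 1.13, SE 0.11, 95% interval 0.88 to 1.38; limma, adjusted p = 0.00276). In each gene the gap between the groups was several times the difference within a pair.

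Per kb, asah-2 was at 0.799 and 0.751 of asah-1 in wild type and at 0.807 and 0.725 in the mutant, ranges that overlapped. The difference between the groups in the log2 ratio was -0.02. The summed level of the pair went from 47.8 and 46.6 to 104.2 and 108 CPM per kb, the largest increase in CPM per kb of the 3 classes with several listed members (59.1, against 27.2 for the sphingomyelinase genes and 24.9 for the glucocerebrosidase genes). Of that increase 56.9% came from asah-1 and 43.1% from asah-2.

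Among the glucocerebrosidase genes, gba-4 rose and the other 3 did not pass. The gene gba-4 (Y4C6B.6, WBGene00021160; chromosome IV, 5344592 to 5350897, minus strand) was at 44.9 and 44.7 CPM in wild type against 90.1 and 81.9 CPM in the mutant. The wild-type pair nearly coincided and lay well below both mutant libraries. The rise was 1.92-fold, with a log2 change of 0.92 (SE 0.094, 95% interval 0.70 to 1.14; limma, adjusted p = 0.0039).

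The gene gba-3 (F11E6.1, WBGene00008706; chromosome IV, 17473334 to 17479397, plus strand) was at 12.9 and 14.03 CPM in wild type against 13.0 and 11.2 CPM in the mutant. Its values overlapped between groups, with a log2 change of -0.15 (95% interval -0.57 to 0.27; limma, adjusted p = 0.603). The neighbouring genes gba-1 and gba-2 lie tail to tail on chromosome II and share 17 bases of exon, gba-1 (C33C12.3, WBGene00016335) from 2176741 to 2182510 on the plus strand and gba-2 (C33C12.8, WBGene00016340) from 2182494 to 2186434 on the minus strand. The values of gba-1 were 14.5 and 16.3 CPM in wild type and 20.0 and 14.1 CPM in the mutant, so that the mutant libraries lay on either side of the wild-type pair (log2 change 0.12, 95% interval -0.35 to 0.59; limma, adjusted p = 0.719).

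The gene gba-2 was the lowest of the 10, at 1.26 and 1.28 CPM in wild type and 1.28 and 1.55 CPM in the mutant. These values rest on 19 to 24 reads a library, and the log2 change of 0.09 had a 95% interval of -0.46 to 0.64 (limma, adjusted p = 0.825). Changes within the intervals of gba-1, gba-2 and gba-3 were not detectable at this depth and replication. Per kb, gba-4 was 4.08 and 3.75 times the level of gba-3 in wild type and 8.18 and 8.61 times in the mutant, and 4.49 and 3.97 times the level of gba-1 in wild type and 6.52 and 8.44 times in the mutant (exact two-sided permutation tests, p = 0.333, the smallest value possible). Its share of the summed level of the 4 genes was 66.8% and 64.6% in wild type and 77.5% and 79.7% in the mutant, and that sum went from 40.4 and 41.7 to 70.1 and 61.9 CPM per kb.

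The lyase gene spl-1 (Y66H1B.4, WBGene00004981; chromosome IV, 379885 to 383185, minus strand) had the smallest rise of the 6. Its values were 86.9 and 85.9 CPM in wild type against 107 and 112 CPM in the mutant, and its groups did not overlap. The rise was 1.27-fold, with a log2 change of 0.34 (SE 0.079, 95% interval 0.15 to 0.52; limma, adjusted p = 0.0334). This call was lost without wild type replicate 3 (adjusted p = 0.205), without wild type replicate 4 (0.282) and when values were scaled to the library total alone (0.0577), with a change between 0.24 and 0.37 over all alternatives. The related genes spl-2 and spl-3 also encode members of the lyase family. For spl-3 (Y104H12D.3) the values were 53.2 and 56.9 CPM in wild type and 64.8 and 66.8 CPM in the mutant, without overlap but not past the test (log2 change 0.25, SE 0.092; limma, adjusted p = 0.102), and spl-2 (B0222.4) lay between 2.70 and 3.64 CPM in the 4 libraries.

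**Figure D3:**
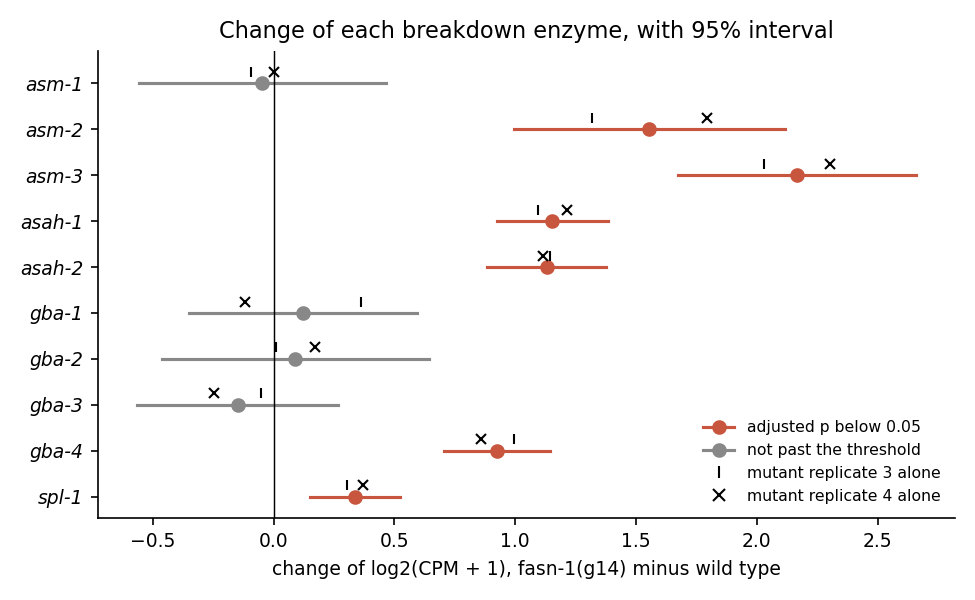
Change of log2(CPM + 1) of each enzyme, fasn-1(g14) minus wild type, as a dot with its 95% interval from limma; black marks give each mutant library against the wild-type mean. The intervals of asm-1, gba-1, gba-2 and gba-3 span 0, and the asm-3 dot is farthest to the right at 2.17.

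Each of the mutant libraries was also set against the wild-type mean. For asm-3 the change was 2.03 in replicate 3 and 2.303 in replicate 4 on the log2 scale, for asm-2 it was 1.32 and 1.79, and for asah-1 it was 1.09 and 1.22. For asah-2 and gba-4 the order was the other way, with 1.15 and 0.99 in replicate 3 and 1.12 and 0.86 in replicate 4. Replicate 4 was thus farther from wild type for 4 of the 6 genes that rose, against 74.0% of the 572 genes that rose in the whole table.

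The order of the genes by level per kb was set by spl-1 in wild type, at 48.1 ± 0.375 CPM per kb (SD, n = 2). Next came gba-4 at 26.98 ± 0.0579, asah-1 at 26.6 ± 0.0493 and asah-2 at 20.6 ± 0.877 CPM per kb. Then gba-3 at 6.90 ± 0.394, gba-1 at 6.40 ± 0.551 and asm-3 at 5.85 ± 1.81 CPM per kb followed, neighbours whose libraries overlapped. Below them stood asm-1 at 3.14 ± 0.0220, asm-2 at 2.28 ± 0.329 and gba-2 at 0.799 ± 0.0112 CPM per kb. The exons of gba-1 span 2403 bases, of which 1569 are coding, and those of gba-3 span 1955, of which 1878 are coding. The order of gba-1 and gba-3, and the ratio of gba-4 to gba-1, thus depend on the length used.

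In the mutant, spl-1 at 60.8 ± 1.99 and asah-1 at 60.2 ± 3.68 CPM per kb did not differ beyond their spread. They were followed by gba-4 at 51.8 ± 3.51, asah-2 at 46.0 ± 0.694 and asm-3 at 27.6 ± 3.76 CPM per kb. The level of asm-3 was there well above that of gba-1 (7.09 ± 1.75) and gba-3 (6.18 ± 0.641), with which it had overlapped in wild type. The level of asm-2, 7.79 ± 1.92 CPM per kb, overlapped with that of gba-1 and, narrowly, of gba-3. The lowest were asm-1, now below asm-2, and gba-2, at 3.03 ± 0.1698 and 0.894 ± 0.1203 CPM per kb.

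**Figure D4:**
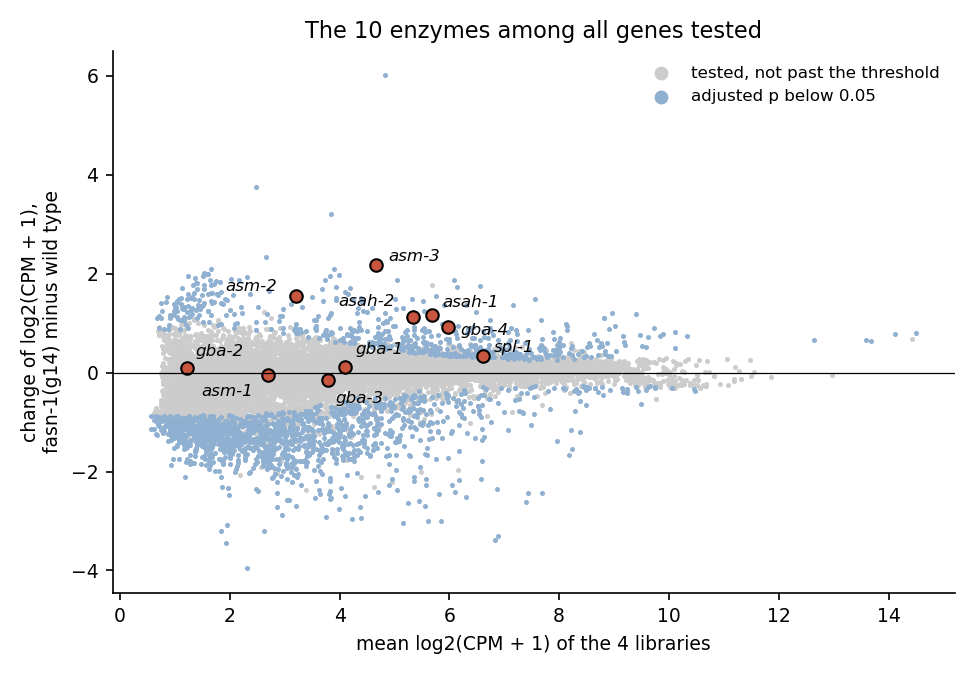
Change of log2(CPM + 1) against mean log2(CPM + 1) for the 12977 genes tested, with genes past the threshold in blue and the 10 enzymes as labelled red dots. The dot of asm-3 lies near the upper edge at its level, and asm-1, gba-1, gba-2 and gba-3 lie near 0.

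Genes that make sphingolipids, and the sugar-bearing and phosphorylated forms of them, were set beside the breakdown enzymes. Of 26 such genes listed, 25 were matched to a row, and the symbol of the other was not in the annotation used. Of the 25, 2 rose and 2 fell, beside 4.41% and 10.7% of all genes tested. The other 21 did not pass, and the list had a median log2 change of 0.19. The genes that rose were sptl-1, for a subunit of serine palmitoyltransferase, the first enzyme of sphingoid base synthesis, and let-767, for a ketoacyl reductase of fatty acid elongation. The values of sptl-1 were 122.3 and 113 CPM in wild type and 142 and 165 CPM in mutant animals (log2 change 0.38, SE 0.096; limma, adjusted p = 0.0405), and let-767 rose 1.48-fold. The gene that fell most was lagr-1, for a ceramide synthase homolog, from 9.30 and 6.68 CPM in wild type to 2.64 and 0.907 CPM in the mutant (log2 change -1.76, SE 0.35; limma, adjusted p = 0.0228). The other fall was bre-1, for an enzyme that makes GDP-fucose, from 34.3 ± 3.43 to 19.8 ± 4.62 CPM (SD, n = 2).

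The elongase gene elo-6, which makes branched fatty acids, had 170 ± 2.51 CPM in wild type and 252 ± 68.3 CPM in the mutant group (limma, adjusted p = 0.0611), and sms-5, of the sphingomyelin synthase family, had 2.88 ± 0.697 and 1.10 ± 0.360 CPM (adjusted p = 0.0647). Leaving out wild type replicate 3 or wild type replicate 4 left 0 rises among the synthesis genes, where 1.16% and 1.17% of all genes tested rose. Leaving out mutant replicate 3 gave 11 rises and leaving out mutant replicate 4 gave 5, where 18.1% and 7.68% of all genes tested rose, so the counts in the list and in the whole table moved the same way. Falls numbered 0 and 1 without wild type replicates 3 and 4, beside 3.43% and 1.38% of all genes tested, and 4 without mutant replicate 3, beside 25.2%.

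The lysosome, where the sphingomyelinases, ceramidases and glucocerebrosidases act, holds many other hydrolases. Of 30 lysosomal genes listed, 28 were tested, and 10 rose and 2 fell, beside 4.41% and 10.7% of all genes tested. The remaining 16 did not pass, and the list had a median log2 change of 0.18. The rises were among soluble enzymes, with 3 of 3 lipases tested, 4 of 6 proteases and 2 of 5 glycosidases. The listed lipase genes lipl-3 and lipl-4 were not tested. Of 2 enzymes of other kinds the nuclease gene nuc-1 rose, and of 3 sulfatase genes 0 rose and 1 fell. Of 7 membrane protein genes 0 passed, with changes from -0.12 to 0.39. The split into kinds was made after the values were seen, and the difference between kinds was not tested.

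The acid glucosidase-related genes aagr-1 and aagr-2 rose 1.82-fold and 1.63-fold, to 108 ± 6.01 and 330 ± 6.84 CPM, and nuc-1, for a lysosomal DNase, rose 1.63-fold to 88.4 ± 1.97 CPM (limma, adjusted p = 0.0039, 0.00455 and 0.00732). The cathepsin B-like protease gene cpr-6 rose by 0.73 on the log2 scale, the aspartyl protease gene asp-4 by 0.53 and the lipase gene lipl-1 by 1.72. The saposin gene spp-10, named for its role and after its values were seen, is from the family of proteins that assist sphingolipid hydrolases. It was at 110 and 115.3 CPM in wild type against 142 and 132 CPM in the mutant and did not pass (log2 change 0.28, SE 0.081; limma, adjusted p = 0.0541). The genes that fell, named after their values were seen, were the sulfatase gene sul-2 and hlh-30, for the worm homolog of TFEB, a transcription factor of lysosomal genes. The values of hlh-30 were 116 and 132 CPM in wild type and 78.9 and 59.3 CPM in the mutant (log2 change -0.84, SE 0.14; limma, adjusted p = 0.0148). Without wild type replicate 3, 5 lysosomal genes rose and 1 fell, beside 1.16% and 3.43% of all genes tested, and without wild type replicate 4, 1 fell, beside 1.38%.

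**Figure D5:**
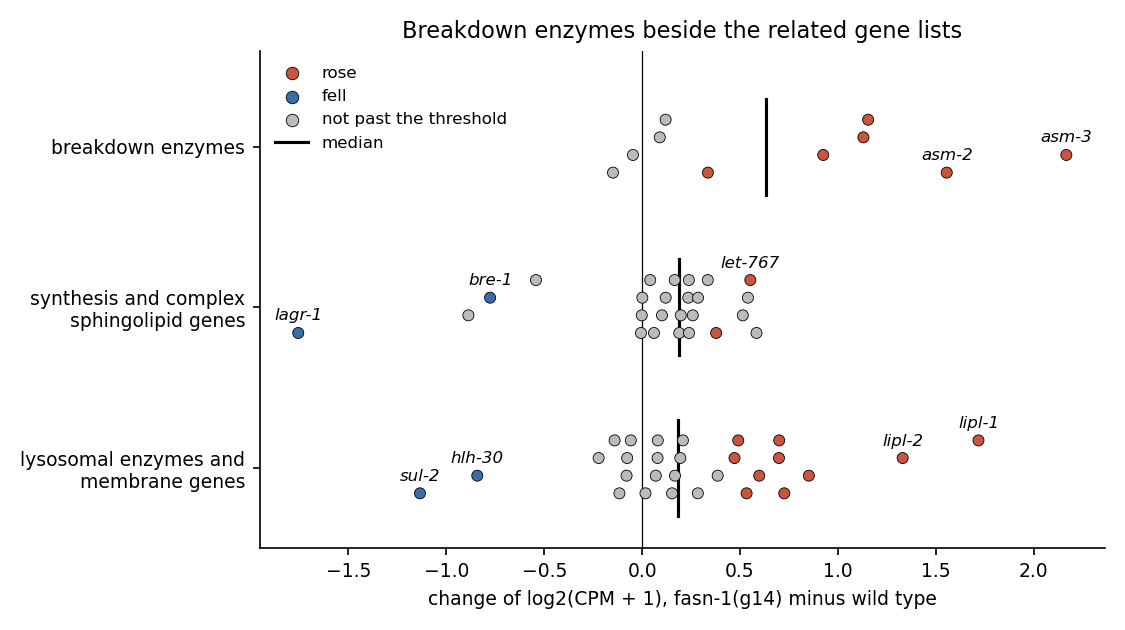
Change of log2(CPM + 1), fasn-1(g14) minus wild type, for the breakdown enzymes, the synthesis and complex sphingolipid genes and the lysosomal genes; each dot is a gene, red rose, blue fell, grey did not pass, and the black bar is the list median. The medians lie at 0.63, 0.19 and 0.18, and the vertical scatter within a list has no meaning.

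Markers of tissues moved with the comparison, and the counts below stand beside 4.41% of all genes tested that rose and 10.7% that fell. The summed CPM of 5 pharynx markers was 1096 and 1179 in wild type and 326 and 154 in the mutant, that of 6 neuron markers was 425 and 457 against 331 and 286, and that of 3 coelomocyte markers, cells rich in lysosomes, was 7.60 and 9.11 against 5.34 and 4.21. Of these, 4 pharynx, 4 neuron and 1 coelomocyte markers fell, and the rest did not pass. Sperm markers were higher, at 2.39 and 4.11 CPM summed over 5 genes in wild type and 18.6 and 25.97 CPM in the mutant, and 4 of the 4 tested rose. Those 4 were at 0.251 to 1.42 CPM in wild type, the lowest value near the floor. The msp genes among them are near-identical copies whose reads cannot be assigned with certainty. Of 7 intestine markers 1 rose and 6 did not pass. Their sums were 2109 and 1961 CPM in wild type and 2010 and 2034 CPM in the mutant. Most of each sum was asp-1, which is also on the lysosomal list. That gene was at 1569 and 1390 CPM in wild type and 1378 and 1302 CPM in the mutant. Both mutant libraries lay above both wild-type libraries for 4 of the 7, against 31.2% of all genes tested. They lay below them for 1, asp-1, against 32.9%. In the germline and oocyte list 0 of 6 passed. Of 5 epidermis markers 2 fell, dpy-7 by 1.37 and grd-10 by 2.76 on the log2 scale, and the list summed to 303 and 320 CPM in wild type against 244 and 200.3 CPM in the mutant. Of 5 body wall muscle markers unc-27 rose and myo-3 fell, and 3 did not pass, with sums of 2204 and 2136 CPM in wild type against 2277 and 2264 CPM in the mutant. The part of these shifts in the changes of the breakdown enzymes was not tested.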

How the data were processed

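The deposited table gives, per the file name and values, a normalized signal per gene in CPM, and the submitters' processing notes name edgeR 3.28.1, HTSeq 0.12.4 and Bowtie2 2.3.3.1 without their roles. For the authors' genome build and gene filter, the sources used here give nothing. Rows were matched by sequence name to the Ensembl release 115 annotation of WBcel235 (13747 of 13758 rows to 1 gene), which gave positions and merged exon lengths. Each deposited value was a whole multiple of its column's smallest step within 0.001 read, for 100% of values, so reads were recovered, and 8 columns of other samples were not used. The test covered 12977 genes that reached 1 CPM in 2 or more libraries, fitted with limma 3.58.1 in R 4.3.3 on log2(CPM + 1), with a mean-variance trend, two-sided, Benjamini-Hochberg adjusted over all of them with a threshold of 0.05. Because the columns do not sum to the total of plain CPM, the values were recorded as a signal, and the test for CPM was used on them. Changes on this log2 scale understate those of low genes, folds are ratios of mean CPM unless said otherwise, and the floor covers counting error only. EdgeR 4.0.16 and DESeq2 1.42.0 on recovered reads were alternatives. Replicates differed beyond counting noise: the chi-square of their reads per degree of freedom was 4.77 for the wild-type pair and 14.4 for the mutant pair. The members and gene lists were chosen with earlier results of these data known. By the rule for named genes, the text names the 10 enzymes, relatives of spl-1, fasn-1, the 6 lowest p-values in each list among genes averaging 1 CPM or more, and the nearest patterns. Outside it stand hlh-30, sul-2, spp-10, marker genes and cyn-10, which shares exon bases with asm-1, and these were chosen after their values were seen. Among listed genes, lipl-3 and the sperm marker spe-11 did not pass the filter, and lipl-4 was in the annotation but had no row.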

Additional observations from a re-analysis of the deposited data

How the results depend on the processing

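The count of breakdown enzymes was 6 rises and 0 falls under 11 of the 14 alternatives. It was 5 and 0 under the other 3, those without either wild-type library and the one scaled to the library total, where spl-1 was lost. The genes asm-2, asm-3, asah-1, asah-2 and gba-4 passed under all 14, with adjusted p at most 0.0375, 0.0109, 0.00642, 0.00828 and 0.0131. Signs turned for asm-1 (0.0015) and gba-1 (-0.12) without mutant replicate 3, against -0.095 and 0.36 without mutant replicate 4, and neither gene passed in either. With all 4 libraries kept, the alternatives called 2.77% to 9.22% of all genes as rises and 5.55% to 17.8% as falls. Requiring a mean of 5 CPM left 9166 genes tested. Among others it dropped gba-2, and lagr-1 and sul-2, which had fallen in the main test. It left 288 rises and 509 falls in the table (3.14% and 5.55%), 1 and 0 among synthesis genes and 1 fall among lysosomal genes. Scaling to the library total, which moved the median change by -0.093, left 359 rises in the table (2.77%) and 1 among synthesis genes. With edgeR 1 synthesis gene rose, beside 3.38% of all genes tested, and 1 lysosomal gene fell, beside 7.04% (913 genes). With DESeq2 5 synthesis genes rose, beside 3.91% of all genes tested, and 1 lysosomal gene fell, beside 8.15%. A pseudocount of 0.5 CPM left 1 lysosomal fall, beside 9.29% of all genes tested. Apart from the loss of lagr-1 and sul-2 to the filter at 5 CPM, the cause of these shifts was not tested.

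Leaving out each library in turn gave 151 to 2346 rises and 179 to 3268 falls in the table, 0 to 11 and 0 to 4 among synthesis genes, and 5 to 13 and 1 to 3 among lysosomal genes. The lone library of a group was there assumed to vary like the pair. The replicate block gave 6 and 0 for the breakdown enzymes, 5 rises among synthesis genes, and 626 and 1872 in the table (4.82% and 14.4%). Same-numbered libraries did not deviate together (correlation -0.21 across genes), so the numbers were not taken as pairs. A block with crossed numbers, chosen after seeing the data, gave 1197 and 2310 in the table (9.22% and 17.8%). It gave 8 and 4 among synthesis genes, and 6 and 0 for the breakdown enzymes.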

Other observations

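The genes whose pattern over the 4 libraries was most like that of each enzyme that rose were found by the distance of centred log2(CPM + 1) values, among 7705 genes with a symbol of letters and number. The added 1 CPM shrinks the changes of low genes, so genes of unlike fold in CPM can lie close here. For asm-3 the nearest were msp-57, col-135 and dach-1, at distances of 0.12, 0.21 and 0.29 on the log2 scale. The values of msp-57 were 0.251 and 0.877 CPM in wild type against 4.66 and 6.54 CPM in the mutant. The cuticle collagen gene col-135 was at 5.40 and 9.17 CPM in wild type against 27.9 and 33.5 CPM in the mutant, and dach-1 at 1.51 and 2.16 CPM against 10.9 and 15.9 CPM. The nearest to asm-2 were the major sperm protein genes msp-40, msp-3 and msp-55, at distances of 0.041, 0.11 and 0.13. These stood at 0.377 to 1.15 CPM in wild type against 2.70 to 6.09 CPM in the mutant, and as near-identical copies their reads cannot be assigned with certainty.

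The gene gly-13, for an N-acetylglucosaminyltransferase, was among the 3 nearest of both asah-1 and asah-2, at distances of 0.100 and 0.070, with 19.9 and 19.7 CPM in wild type and 43.1 and 43.5 CPM in the mutant. The others were msp-10 for both, unc-132 for asah-1 and alg-3 for asah-2. Low values were those of msp-10, 0.377 and 0.405 CPM in wild type against 1.96 and 2.07 CPM in the mutant. So were those of alg-3, at 0.565 and 0.405 CPM against 2.09 and 2.14 CPM. The values of unc-132 went from 58.7 and 56.2 CPM in wild type to 131 and 139 CPM in the mutant. The nearest to gba-4 were nhr-55, pks-1 and cest-31, of which the polyketide synthase gene pks-1 went from 19.5 and 19.4 CPM to 40.7 and 40.1 CPM. The nearest to spl-1 were his-6, at 0.877 to 1.42 CPM over the 4 libraries, pigm-1 and lin-3, none of which passed the test. Over 4 libraries this likeness is a description and carries no test.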
